A study of Mus musculus with 4 samples.

Results

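Cirbp and Rbm3 encode the cold-inducible RNA-binding proteins, a pair of small, closely related proteins that each join an RNA recognition motif to a glycine-rich tail. In cultured cells and in rodent brain their transcripts accumulate when temperature falls a few degrees and decline when it rises, opposite to the heat shock genes. Both proteins bind many messenger RNAs and affect their stability, translation and choice of polyadenylation site. Rbm3 is known in the brain for its part in the rebuilding of synapses after cooling, and Cirbp for shaping the amplitude of circadian transcripts. Both genes were followed here in fetal mouse brain after maternal undernutrition, by every array probe that carried either name. They are 2 of 28146 gene names on the array, and their probes were 3 of 41174, 1 for Cirbp and 2 for Rbm3. The genes were chosen for their ratios on these same arrays, so their values are given as a description with no test.

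The samples were whole brains of C57BL/6J fetuses on 2-colour Agilent arrays. In food deprivation (FD), dams went without food overnight on gestation day 17. In food restriction (FR), dams received 50% of the chow that control dams ate, from gestation day 10 to 17, and the fetuses were taken on gestation day 18. That day is stated for FR and left implicit for FD. Control dams ate freely. Fetuses of every group were anaesthetised in ice-cold saline before dissection. Total RNA of 5 fetuses was pooled for each condition. A treated pool and a control pool shared each array, and the dyes were swapped between the 2 arrays of a comparison. The treated pool carried Cy5 on array 1 and Cy3 on array 2. Both arrays of a comparison therefore measured 1 pair of pools, n = 1 pool per condition, and every SD given here is the spread between those arrays and not between animals. Whether FD and FR shared a control pool, and whether the fetuses came from separate dams, is not given in the sources used here. Control levels of skeletal muscle and brown fat markers differed between the FD and FR arrays, as given below.

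The probe sequences are shown because the pair of Rbm3 probes gave different readings. Each probe has 60 bases, of which the first 30 are printed in lower case from 5′ to 3′ as the array files give them. Positions are on mouse build mm9, and the files state no exon or transcript region. The Cirbp probe (A_51_P272106) lies on the plus strand at chr10:79634274-79634333. The bright Rbm3 probe (A_51_P262340), annotated for transcript variant 2, lies on the minus strand at chrX:7719656-7719715. The dim Rbm3 probe (A_52_P280360), annotated for transcript variant 1, lies on the minus strand at chrX:7718033-7718092, which is 1623 bases from the bright one.
Cirbp: atttatattgtccttttttaccgaagacat
Rbm3, bright probe: atggccagaaagtgatttctgaatgtacct
Rbm3, dim probe: agttggatggttttctagctgtgtgtgtat
No pair of the 3 probes shared an identical run longer than 6 bases.

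The region upstream of Cirbp is shown because it holds the letters of an element described for the cold response of this gene. RefSeq gives 2 Cirbp starts in the promoter table used here, on build GRCm38.p6. The 250 bases before the first lie on the plus strand at chr10:80167589-80167838. Capitals mark TCCCCGCC, the mild cold response element, and CCAAT on either strand.
Cirbp upstream region: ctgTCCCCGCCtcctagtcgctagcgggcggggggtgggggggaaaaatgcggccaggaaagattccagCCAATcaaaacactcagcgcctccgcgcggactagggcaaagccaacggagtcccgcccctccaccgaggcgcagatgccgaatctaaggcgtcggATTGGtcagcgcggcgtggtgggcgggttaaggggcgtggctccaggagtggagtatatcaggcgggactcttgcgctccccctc
The TCCCCGCC match began at position -247 relative to the start, and the CCAAT matches lay at -181 on the plus strand and -85 on the minus strand. On both strands, TCCCCGCC was found in 5.38% of all 32851 promoter windows of 300 bases and CCAAT in 37.4%. The GC box GGGCGG, found in 35.7% of windows, occurred 3 times. GAANNTTC, a short form of the heat shock element, occurred in 7.86% of windows and the E-box CACGTG in 7.15%, and neither was found in the window of this start. The window of the other Cirbp start held 0 matches to TCCCCGCC and 0 to CCAAT. These are letter matches in a window and not binding sites.

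On raw intensities, before any correction, the Cirbp spot read 54916 for the FD pool against 7024 for control on array 1, and 16504 against 34832 on array 2. In FR the same spot read 62638 against 5529 on array 1 and 12766 against 28662 on array 2. The bright Rbm3 spot read 39577 for FD against 6425 on array 1 and 13931 against 24892 on array 2. For FR it read 40670 against 5188 and 9413 against 21445. The Cy5 channel was the brighter one on every array for both genes, so each array alone mixes dye and diet, and only the combination of both orientations bears on diet. The plain mean of each swapped pair of raw log2 ratios was 0.95 in FD and 1.17 in FR for Cirbp. For the bright Rbm3 probe it was 0.90 in both. The scanner software marked no member spot as saturated, and none lay in a region of bright background.

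After background correction and intensity-dependent (loess) dye normalisation, every array gave a positive log2(treated/control) for Cirbp and for the bright Rbm3 probe. Cirbp in FR was 1.44 on array 1 and 1.19 on array 2. Their mean was 1.32 (SD 0.173), 2.49-fold higher in the restricted pool than in control. In FD the Cirbp ratio was 0.70 on array 2, which is 1.62-fold higher. The Cirbp spot of FD array 1 read 0.93, but the scanner software marked its Cy3 pixels as non-uniform, and it was left out. Cirbp in FD therefore rests on 1 array and was not counted as measured on both. With outlier marks ignored, its FD mean was 0.79.

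Rbm3, by its bright probe, was higher than control in both diets. Its log2 ratio was 0.61 and 0.92 on the FD arrays, a mean of 0.76 (SD 0.213), 1.70-fold higher. On the FR arrays it was 0.93 and 1.14, a mean of 1.04 (SD 0.144), 2.05-fold higher. The spread of a mean over a swapped pair, from the disagreement of arrays over all measured genes, was 0.111 in FD and 0.115 in FR. Among the brightest 10% of genes, where both members lie, it was 0.150 and 0.151, and for a single FD array 0.212. These spreads hold technical error alone and are given for scale, since the genes were chosen for these ratios. The lowest of the members' values, 0.61 for Rbm3 on FD array 1, lay just above the 1.5-fold line of 0.585.

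**Figure D1:**
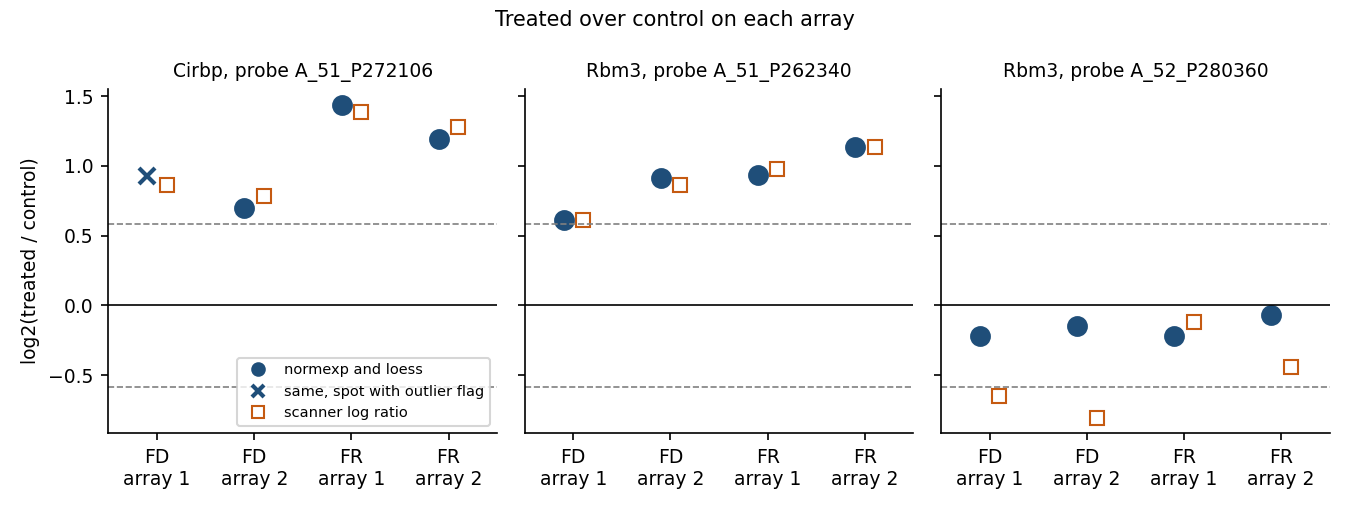
Log2(treated/control) of each member probe (1 panel each) on each of the 4 arrays. Filled circles are the normalised ratios, the cross is the outlier-marked Cirbp spot of FD array 1, open squares are the scanner software's ratios, and dashed lines mark 1.5-fold. In the normalised ratios, Cirbp and the bright Rbm3 probe lie between 0.61 and 1.44 on all arrays, while the dim Rbm3 probe lies between -0.22 and -0.07.

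The dim Rbm3 probe did not follow the bright one. Its raw intensity was 88.0 for FD against 67.6 for control on array 1 and 62.2 against 109 on array 2. In FR it read 100.3 against 64.5 and 60.0 against 119.9. The scanner software called these spots well above background, although the local background was 43.5 to 57.5. Its log2 ratios were -0.22 and -0.15 in FD, a mean of -0.18, and -0.22 and -0.07 in FR, a mean of -0.14. It was brighter than 9.26% of measured genes in FD and 12.9% in FR, where the bright probe exceeded 98.0% and 97.9%. The offset of 50 used in the background correction draws ratios of such dim spots toward 0. The scanner software's own log2 ratios, which use no such offset and a different background and dye correction, were -0.65 and -0.80 in FD and -0.12 and -0.44 in FR. Averaging both probes would give Rbm3 a log2 ratio of 0.29 in FD and 0.45 in FR. The transcript forms each probe detects were not tested.

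Single-channel levels, as normalised log2 intensity, show how the pools were ordered for each gene. For Cirbp the FR pool was highest, at 14.94 and 15.00, followed by the FD pool at 14.70 and 14.72. The control beside FD read 13.77 and 14.02, and the control beside FR read 13.50 and 13.80. Each treated reading was above the control reading of its array. How many of all probes order the pools in this way was not counted, so nothing is read from the order. With equal orientation the control beside FR was lower on both arrays, at -0.27 and -0.22. The treated shifts were 0.24 and 0.27. Of all probes measured in both diets, 17.5% had a treated level at least 0.1 higher in FR on both arrays. For the control level, 12.6% were at least 0.1 lower. The first Cirbp value of FD and of its control come from the outlier-marked spot. For Rbm3 the FR pool read 14.34 and 14.52 and the FD pool 14.23 and 14.48, and these overlapped. The control beside FD read 13.61 and 13.56, and the control beside FR 13.41 and 13.39, below both treated pools on every array. With equal orientation the Rbm3 control beside FR was lower, at -0.21 and -0.18. These readings are whole-brain averages, in which more RNA per cell and more cells of a type cannot be told apart.

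**Figure D2:**
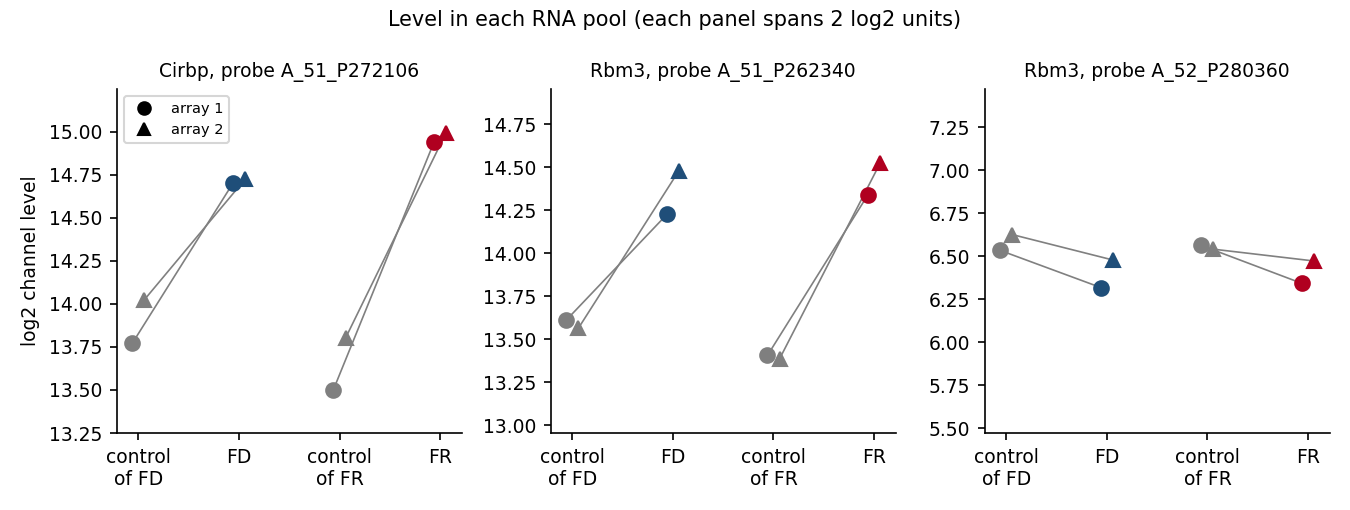
Normalised log2 single-channel intensity of each probe in the treated pool and its control on each array. Circles are array 1 and triangles array 2, lines join the channels of an array, and each panel spans 2 log2 units on its own axis. For Cirbp the treated pools lie at 14.70 to 15.00 and the controls at 13.50 to 14.02, and for the bright Rbm3 probe at 14.23 to 14.52 and 13.39 to 13.61.

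FR exceeded FD for both genes by less than either exceeded control. Arrays of equal dye orientation were compared. The Cirbp log2 ratio was 0.49 higher in FR on array 2, and 0.55 higher as a mean of 0.52 and 0.58 when the marked spot was kept. Split by channel, with that spot kept, the treated level was 0.26 higher and the control level was lower, at -0.25. For Rbm3 the difference was 0.32 and 0.22, a mean of 0.27. Of this, 0.08 came from the treated level and the control level stood at -0.19. In the brightest 10% of genes, the technical SD of such a difference was 0.301 between 2 arrays and 0.213 between means over both orientations. Over 23377 probes, 95% of differences fell between -0.32 and 0.31 for the control level and between -0.35 and 0.38 for the treated level, and the shifts of both genes in each channel lay inside these ranges. With median centring in place of loess, the FR minus FD difference was 0.077 for Cirbp on array 2, 0.32 for Cirbp over both orientations with the marked spot kept, and 0.046 for Rbm3. The raw swapped means of Rbm3 given above were equal to 2 decimals. With the scanner software's ratios the difference was 0.50 for Cirbp and 0.32 for Rbm3.

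Against all genes, the members stood high and were among the brightest. At least 1.5-fold higher on both arrays were 17 of 17945 measured genes in FD, 0.0947%, with Rbm3 among them. In FR there were 106 of 18541, 0.572%, with both Cirbp and Rbm3 among them. At least 1.5-fold lower were 23 genes in FD, 0.128%, and 84 in FR, 0.453%, so 0.223% and 1.02% of genes passed in either direction. The members were chosen on this contrast, so nothing is read from their share. By mean ratio, 8 genes were higher than Rbm3 in FD. In FR, 8 were higher than Cirbp and 22 higher than Rbm3. By the scanner software's ratios, with nearly the same values for the members (0.74, 1.33 and 1.05), these genes ranked 60 for Rbm3 in FD, and 52 for Cirbp and 97 for Rbm3 in FR. Cirbp was brighter than 98.5% of measured genes in each comparison. In the brightest 10% of genes, 3 genes of 1795 passed the line upward in FD and 13 of 1855 in FR. Rbm3 was the second highest of these in FD, after Erdr1. In FR Cirbp was second, after Soga1, and Rbm3 was the sixth.

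**Figure D3:**
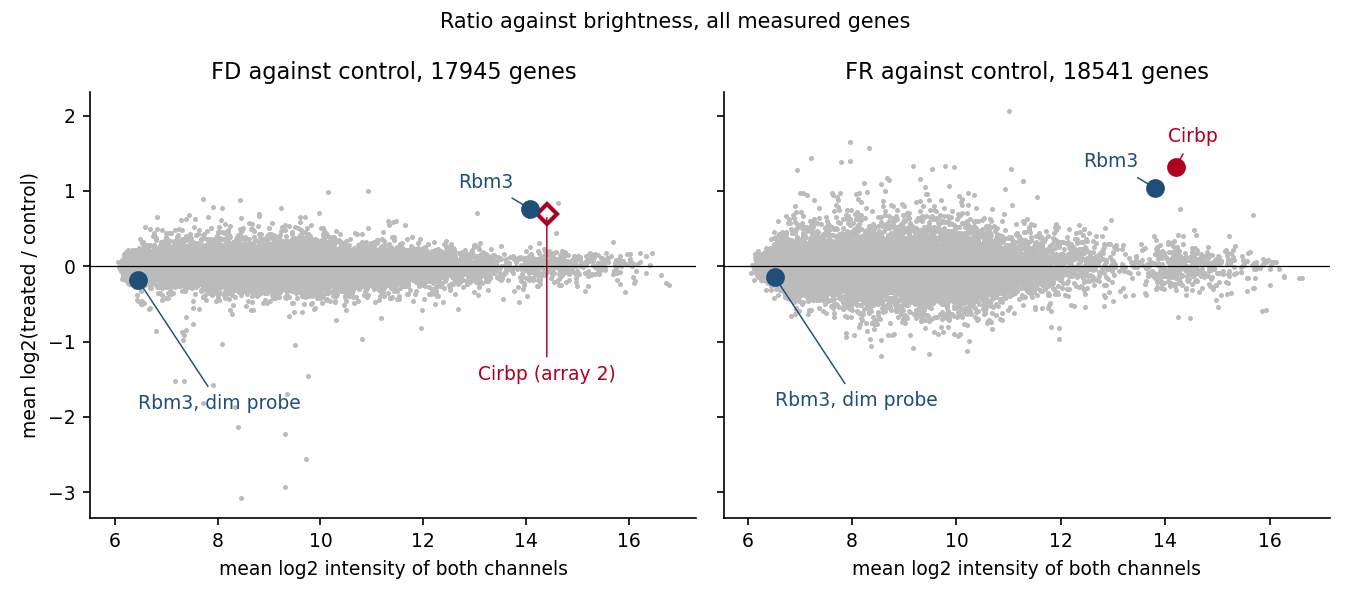
Mean log2(treated/control) against mean log2 intensity for every measured gene, 17945 in FD and 18541 in FR. Grey points are genes, coloured points the member probes, and the open diamond is Cirbp in FD from array 2 alone. Cirbp and the bright Rbm3 probe lie at the bright end above most genes, and the dim Rbm3 probe lies at the dim end near 0.

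Whether the genes passed 1.5-fold on both arrays depended on the dye normalisation. Cy5 read higher for bright spots, which loess corrects by intensity and centring each array by its median does not. Under median centring neither gene reached 1.5-fold on both arrays in either diet, and Cirbp in FD, resting on the array with treated RNA in Cy3, read -0.16. With its marked spot kept, the median-centred mean over both orientations was 0.93.

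All listed markers of neurons, neural progenitors, astrocytes, oligodendrocyte lineage, microglia and endothelium were well above background in every channel. So were 5 of 5 bone and cartilage, 5 of 6 skeletal muscle, 4 of 5 liver and 4 of 6 pituitary markers, so detection alone did not single out brain. Between 71.4% and 85.3% of 43379 spots per channel were well above background. Markers of tissue outside the brain differed in FD. Levels in brackets are mean log2 levels over all measured markers of a list, treated against control. At least 1.5-fold lower were 5 of 5 measured skeletal muscle markers (7.99 against 10.3) and 3 of 4 brown fat markers (7.52 against 9.10). So were 2 of 4 pituitary markers (7.52 against 8.25) and 2 of 5 bone and cartilage markers (8.83 against 9.33). Of 3 liver markers, 1 was higher (8.28 against 7.59). On the FR arrays the mean level of 6 muscle markers was 8.04 in the treated pool and 8.02 in control. For brown fat it was 7.46 and 7.58. For both lists the control beside FD was therefore the pool that stood apart, and the FD pool read close to the FR-array pools. In FR 0 of 6 muscle markers and 1 of 4 brown fat markers were lower. Higher were 2 of 4 neutrophil markers (7.98 against 7.30), 1 of 5 bone and cartilage markers and 1 of 3 liver markers. Of 6 oligodendrocyte lineage markers, 1 was lower in FR, Olig1 at -0.79 and -0.67. On both arrays 4 of the 6 were negative and 0 positive, beside 27.9% and 28.0% of all genes. The mean level of the 6 was 9.62 against 9.90 in control. The part of these tissues in the ratios of Cirbp and Rbm3 was not tested.

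Other RNA-binding proteins with the same kind of motif were mostly near 0. Of the genes named Rbm, 36 were measured in FD and 33 in FR, and Rbm3 was the one at least 1.5-fold higher in each, with 0 lower. Their median log2 ratio was -0.01 in FD and 0.01 in FR. The next highest was Rbm33, at 0.26 in FD and 0.55 in FR, and the lowest was Rbm28, at -0.60 and -0.53. In the RBMX, hnRNP A/D and FET families, RNA-binding proteins of splicing and export, 0 of 13 passed in FD with a median of -0.01. In FR 1 of 16 passed, with a median of 0.08 against 0.00 for all genes. It was Hnrnpdl, an hnRNP D relative, at 0.86 and 1.04 on the FR arrays and not measured in FD. With outlier marks ignored, 1 of 16 was higher and 1 lower. With median centring or normexp on all spots, 0 of 16 passed. In FR 9 of those 16 were positive on both arrays and 1 negative, beside 28.0% and 27.9% of all genes. In FD 1 of 13 was positive on both arrays and 5 were negative, beside 25.8% and 23.2% of all genes. Tra2b, a splicing activator, was 0.09 in FD and 0.62 in FR, its relative Tra2a was -0.42 and -0.70, and Hnrnpd was 0.04 and 0.32.

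Cold shock domain proteins, which bind RNA through a different fold, showed 0 of 7 past 1.5-fold in either diet, with medians of 0.05 and 0.01. Under median centring the FR median was -0.08. Lin28b, which blocks let-7 maturation, was 0.22 in FD and 0.49 in FR. Ybx3 was -0.22 and -0.16, and Carhsp1 was 0.09 and -0.22.

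Regulators of temperature-dependent splicing, which are kinases, SR proteins and hnRNP H/F proteins, had 0 of 17 past the line in FD and 1 of 14 in FR, with medians of -0.01 and 0.00. That gene was Srsf6, an SR splicing factor, at 1.17 and 0.89 in FR and 0.59 and 0.43 in FD, a mean of 1.03 and 0.51. Srsf2 was 0.17 in FD and 0.45 in FR. The SR protein kinase Srpk1 was -0.24 and -0.53, and the kinase Clk2 was -0.21 and -0.37. With median centring or normexp on all spots, 0 of 14 passed in FR, and with outlier marks ignored 2 of 19 were higher. The medians of this list changed sign under median centring, to 0.06 in FD and -0.09 in FR.

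Heat shock factors and chaperones, some of them not induced by heat, had medians below 0. In FD 0 of 27 passed 1.5-fold, with a median of -0.10, and 15 were negative on both arrays against 2 positive, beside 23.2% and 25.8% of all genes. In FR the median of 23 measured genes was -0.19. On both arrays 10 were negative and 2 positive, beside 27.9% and 28.0% of all genes. The medians stayed below 0 with loess, median centring, the scanner ratios and the other background settings, from -0.13 to -0.05 in FD and from -0.29 to -0.07 in FR. Hspa4, an HSP110-type chaperone, was the 1 gene past the line in FR, with a mean of -0.96, but 2 other probes of the gene read -0.10 and -0.07 in FR, so its probes disagreed. With median centring 0 of 23 passed. Lower in FR were 2 of 23 with the scanner software's ratios and 2 of 28 with outlier marks ignored. Serpinh1, a collagen chaperone, was -0.57 in FD and -0.54 in FR. Chordc1 was -0.35 and -0.71, and Hspa1a, the inducible HSP70, was -0.32 and -0.48. No gene of this list was at least 1.5-fold higher.

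**Figure D4:**
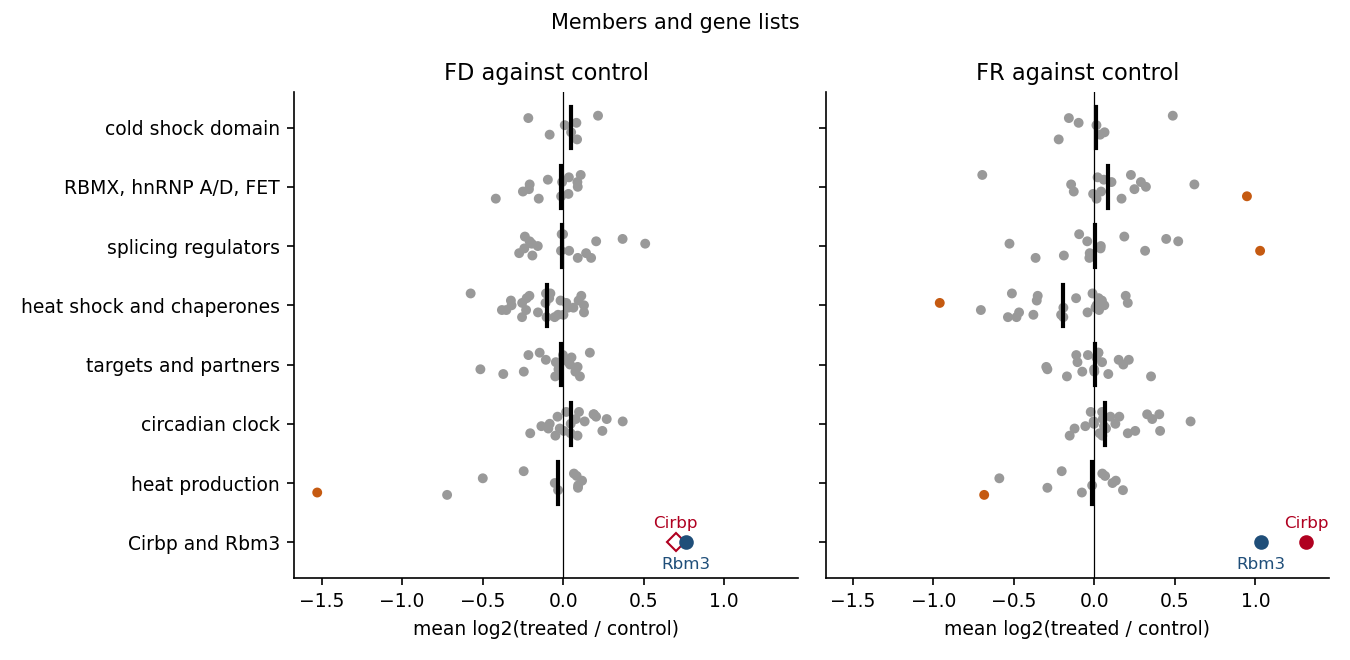
Mean log2(treated/control) of the measured members of each gene list in FD and FR, with a black bar at the list median, orange points past 1.5-fold on both arrays, and Cirbp and Rbm3 in the lowest row. The open diamond is Cirbp in FD from array 2 alone. List medians lie between -0.19 and 0.08, and the members lie between 0.70 and 1.32.

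Transcripts reported as targets or partners of either protein had medians near 0. Of 18 measured, 0 passed 1.5-fold in FD and 0 in FR, with medians of -0.02 and 0.01. Rtn3, whose translation Rbm3 is known to promote in neurons, was -0.24 in FD and -0.08 in FR. Ntrk2, the BDNF receptor that acts upstream of Rbm3, was -0.05 and -0.30. Creb1 was -0.51 and -0.29, and the checkpoint kinase gene Atr was 0.10 and 0.35. Clock genes, whose transcripts Cirbp binds, had 0 of 21 past the line in FD and 0 of 22 in FR, with medians of 0.05 and 0.07. By the scanner software's ratios, 1 of 22 was higher in FR. The nuclear receptor gene Nr1d2 was 0.37 and 0.60, Cry1 was 0.24 and 0.41, Hlf was 0.27 and 0.36, and Per2 was 0.19 and 0.40. Of the clock genes 9 were positive on both arrays and 4 negative in FD, beside 25.8% and 23.2% of all genes, and 9 and 3 in FR, beside 28.0% and 27.9%.

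Genes of heat production were listed together with Trp channel genes, which sense temperature and do not produce heat. This joint list had 1 of 11 past the line in each diet, both lower, with medians of -0.03 in FD and -0.01 in FR. The measured channel genes were Trpa1 at -0.03 in FD and 0.05 in FR, Trpv3 at 0.07 and 0.11, and Trpv4 at -0.05 and -0.08. Ucp1, which uncouples respiration in brown fat, was -1.62 and -1.44 in FD. Cidea, a lipid droplet protein of brown fat, was -0.66 and -0.71 in FR and -0.72 in the mean of FD. With median centring or normexp on all spots, 0 of 11 passed in FR. By the scanner software's ratios, 2 of 11 were lower in FD. Cox7a1 was -0.50 in FD and -0.59 in FR, and Ppargc1a was -0.25 and -0.20. Ucp1 and Cidea are also on the list of brown fat markers given above, and that the RNA came from brain cells was not tested for them.

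Genes next to the members on the chromosome had smaller ratios. None of the measured neighbours of either gene reached 1.5-fold on both arrays. Beside Cirbp, Fam174c was -0.22 in FD and -0.52 in FR, and Sbno2 was 0.15 and 0.18. Beside Rbm3, Wdr13 was 0.07 and 0.06, Tbc1d25 was -0.04 and -0.09, and the sterol isomerase gene Ebp was -0.37 and -0.56. The annotation also places Rbm3os, a non-coding RNA, across an end of Rbm3.

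Likeness of pattern was measured as the Euclidean distance between log2 ratios, over 4 arrays for Rbm3 and over the 3 arrays with a Cirbp value for Cirbp. The distance between Cirbp and Rbm3 was 0.551 over 3 arrays, and 17 of 16741 genes were nearer to Cirbp than Rbm3 was. Both genes were chosen for high ratios on these same arrays, which by itself places them near each other and far from the median gene. Nothing is read from that closeness. Nearest to Cirbp were Hbp1 at 0.220, Mrpl15 at 0.250, 1700093K21Rik at 0.275, Cox16 at 0.348, Rps6 at 0.357 and Armcx5 at 0.358, where the median gene was at 2.02. Nearest to Rbm3 were Nosip at 0.306, Zfp672 at 0.323, Tmem269 at 0.356, 1500004A13Rik at 0.431, Cox16 at 0.435 and Usf2 at 0.441, against a median of 1.87. Several of these rest on 1 probe that other probes of the gene did not match. Another Mrpl15 probe read -0.04 in FD and -0.31 in FR, another Nosip probe 0.10 and 0.01, and another Usf2 probe -0.14 and -0.25. A brighter Hbp1 probe read 0.07 in FD, and a brighter Rps6 probe read 0.25 and -0.26 on the FR arrays. Another Zfp672 probe read 0.04 in FD and -0.18 in FR, and 3 other 1500004A13Rik probes read from -0.86 to 0.31 in FR. Cox16, near both members, read 0.59 and 1.04 on its other probe.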

How the data were processed

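Per the file headers, the deposited scanner files give each spot's mean intensity and the median intensity around it in both channels (Agilent Feature Extraction 9.5.3.1). The deposited log10 ratio of red over green had been background-subtracted and dye-normalised by that software, per the file headers. Marks of 0 or 1 tell whether a spot is well above background, saturated or non-uniform. The deposited value table states no unit. On spots well above background in both channels, the deposited values equalled the scanner ratio as log2(treated/control), with array 2 turned by the authors. The spots of the dim Rbm3 probe were among them. Other spots were not compared, and for those the authors' method is unknown. Column medians of the value table were -0.03, 0.03, -0.03 and 0.01, per the deposited table.

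Intensities went through normexp (offset 50) and loess per array (limma 3.58.1, R 4.3.3), in scripts tested on simulated data. Control and outlier-marked spots got weight 0 in loess and were then dropped. Spots whose surroundings exceeded 2 times the median background of their array were dropped before normexp, 3 on FD array 1 and 44 on FR array 2, where background reached 65319. Single-channel levels were Aquantile-normalised, and array 2 had its sign turned. Measured means well above background in 4 of 4 readings of a comparison, and a gene was read from its brightest measured probe. A gene passed at 1.5-fold in the same direction on both arrays. No test or p-value was computed, because each condition is 1 pool.

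Of 41174 probes, 26918 took their gene name by accession from a RefSeq table (GRCm38.p6, for names only), 5082 by current symbol and 817 by an older one. The name in the file was used for 8357. Members and gene lists were chosen with earlier results of these data known. Named genes were list members past 1.5-fold, up to 4 per list by absolute ratio, and the 6 nearest patterns to each member. Alternatives covered background correction, normalization, outlier marks, the value source, the probe, the dim-probe filter, the size required, and each array left out.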

Additional observations from a re-analysis of the deposited data

Results flagged for a closer look

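Ucp1, the brown fat uncoupling gene on the heat production list, had a mean log2 ratio of -1.53 in FD and 0.066 in FR. The FR mean lay within the technical SD of a swapped-pair mean, 0.115, so Ucp1 was near control in FR. Mean levels of the brown fat markers, given above, were highest in the control beside FD. The difference was not tested, since each condition is 1 pool.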

How the results depend on the processing

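No paired analysis was possible because both arrays of a comparison measure the same pools and no value comes from a test. Cirbp in FR and Rbm3 in both diets kept a positive ratio under every alternative run, from 1.19 to 1.48 for Cirbp in FR, from 0.29 to 0.92 for Rbm3 in FD and from 0.45 to 1.17 for Rbm3 in FR. The low ends for Rbm3, 0.29 and 0.45, came from averaging the dim probe in, and 1.48 from normexp on all spots. Cirbp in FD read -0.16 with median centring, which leaves it 1 array, and 0.93 with median centring and the outlier mark ignored. That setting was chosen after seeing the data, as was ignoring outlier marks, under which Cirbp passed 1.5-fold in FD (mean 0.79) and Rbm3 in FD did not pass on both arrays (mean 0.75). The FR minus FD difference of Cirbp was 0.82 with normexp on all spots and 0.077 with median centring, and that of Rbm3 ranged from 0.046 with median centring to 0.41 with normexp on all spots. Single arrays gave 1.19 to 1.44 for Cirbp in FR, 0.61 to 0.92 and 0.93 to 1.14 for Rbm3 in FD and FR, and 0.22 to 0.32 for its difference. Without array 2, Cirbp in FD has no value. The 40 genes past 1.5-fold in FD (17 higher, 23 lower) became 19 with median centring (3 and 16), 141 with scanner ratios (74 and 67) and 12 at 2-fold (0 and 12), and single arrays gave 104 to 187. The 190 in FR (106 and 84) became 14 with normexp on all spots (11 and 3), 30 with median centring (24 and 6), 604 with scanner ratios (318 and 286) and 25 at 2-fold (20 and 5), and single arrays gave 488 to 562. With 1 pool per condition, animal-to-animal spread is unknown, and signal near background limits the dim Rbm3 probe.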
